A study of Mus musculus with 41 samples.

Results

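10 genes were followed through 13 RNA-seq libraries of mouse androgenetic haploid embryonic stem cells (AG-haESCs), which carry only a sperm-derived genome. 6 of them, Pou5f1, Sox2, Sall4, Utf1, Lin28a and Fgf4, mark pluripotent cells in general, and 4 of them, Fgf5, Otx2, Pou3f1 and Zic2, mark the formative state that follows naive pluripotency. The genes were chosen by symbol from knowledge of these states, and all 10 were found among the 24028 gene symbols measured. The study compared AG-haESCs kept in culture media with different inhibitors and asked how well paternal imprints and developmental potential were preserved. The members were read by medium and by pairs of a 2i/L and a switched culture of the same line.

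All cells were AG-haESCs of strain C57BL/6, enriched as haploid cells by sorting. The lines were started on feeder layers of ICR embryonic fibroblasts. In 2i/L, the medium held DMEM, fetal bovine serum, LIF, the MEK inhibitor PD0325901 and the GSK3 inhibitor CHIR99021. SF/a2i/L is a serum-free medium of DMEM/F12 and Neurobasal with N2, B27 and LIF, in which the Src inhibitor CGP77675 takes the place of PD0325901 beside CHIR99021. TSa2i/L lines were derived in a2i/L with serum and then kept in SF/a2i/L. The wild-type line 2i-14 in 2i/L gave 3 libraries, from passage 18 (p18), p39 and p50. Wild-type TSa2i/L cells gave 5, of which 3 are passages of line TSa2i-14 (p22, p47, p54) and 2 are passages of line TSa2i-C57 (p9, p58). The paper gives the background of TSa2i-14 as actin-EGFP. Line 2i-O48 lacks IG-DMR and H19-DMR, the control regions of paternally imprinted loci, and line 2i-O48-TKO lacks the gene H19 as well. Each gave 1 library in 2i/L. All 3 of the 2i/L lines gave 1 further library after 5 passages in SF/a2i/L, here called switched. The passage at which a line was switched is not given in the sources used here, so the 2i/L library of a pair is a culture of the same line and not known to be the one that was switched. Libraries of 1 line are its passages and no independent lines, so p-values measure the spread between these cultures. Because all wild-type 2i/L libraries came from 2i-14, medium and line cannot be told apart, and the media also differ in serum and base medium.

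Naive pluripotent cells resemble the epiblast before implantation. When the MEK-ERK pathway is active, they leave this state through a formative phase in which Otx2, Pou3f1, Fgf5 and Zic2 come up, while Pou5f1 and Sox2 stay on. FGF4 made by the cells themselves is the main ligand that feeds this pathway, and PD0325901 blocks it downstream of the receptor.

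Values are FPKM, fragments scaled to the length of the transcript and to all mapped fragments, so levels can be compared between genes. The files gave no counts, so depth was estimated from the smallest values, which are multiples of what 1 fragment is worth on a transcript of known length. The implied depth of 2i-14 was 13500000 fragments at p18, 15400000 at p39 and 19000000 at p50. TSa2i-14 had 14400000 (p22), 16100000 (p47) and 15900000 (p54), and TSa2i-C57 had 12700000 (p9) and 14900000 (p58). 2i-O48 had 19700000 and 2i-O48-TKO 18600000, and after the switch the depths were 19500000 for 2i-14, 18400000 for 2i-O48 and 16700000 for 2i-O48-TKO. These are estimates, since the annotation behind the files is not stated, and PCR copies are not separate molecules. A value below that of 3 fragments is treated as not detectable at this depth, a floor that covers counting error only. 2 features set libraries apart. MicroRNA loci held 67.2% of the summed FPKM in switched 2i-14, 23.2% in 2i-14 p18 and at most 1.06% in the other 11 libraries. Fibroblast markers, given below, were highest in 2i-14 p39, TSa2i-14 p54 and TSa2i-C57 p58.

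By their median over the 13 libraries, Pou5f1 stood highest at 121 FPKM, followed by Utf1 at 108, Fgf4 at 44.8, Sall4 at 39.9 and Sox2 at 19.0 FPKM. Otx2 had a median of 2.23 FPKM and Lin28a of 1.00 FPKM, and Pou3f1, Zic2 and Fgf5 had medians of 0.157, 0.0524 and 0 FPKM. Within libraries, Utf1 exceeded Fgf4, Sall4 exceeded Sox2, Sox2 exceeded Otx2 and Lin28a exceeded Pou3f1 in 13 of 13 libraries. The other neighbours in this order changed places in at least 1 library, so their order does not hold beyond the spread over libraries. Pou5f1 exceeded Utf1 in 6 of the 13 and Fgf4 exceeded Sall4 in 9. Among the general genes, Lin28a was thus closer to the formative genes in level than to Sox2.

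Promoters were examined because members of both classes differed in level by orders of magnitude within the same libraries. RefSeq promoters (GRCm38.p6), running from 250 bases before to 50 after a start site, were found for 7 of the 10 members, not for Sall4, Pou3f1 and Zic2, and each window matched NCBIM37 (mm9) exactly once. 5 of them are shown 5′ to 3′ on the strand of the gene, for Pou5f1 and Utf1 as the highest members, Lin28a as a low general gene, and Fgf5 and Otx2 as formative genes. They lie at chr17:35642727-35643026 (plus strand) for Pou5f1, chr7:147129505-147129804 (plus) for Utf1, chr4:133574682-133574981 (minus) for Lin28a, chr5:98682953-98683252 (plus) for Fgf5 and chr14:49287270-49287569 (minus) for the first of 4 listed Otx2 starts. Capitals mark the letters of the GC box, GGGCGG, and of the TATA box, TATAAA, on either strand, and 2 of the GC boxes of Utf1 share a base. They were marked anywhere in the window, without regard to their distance from the start site, so a mark is no evidence of a working box.
Pou5f1: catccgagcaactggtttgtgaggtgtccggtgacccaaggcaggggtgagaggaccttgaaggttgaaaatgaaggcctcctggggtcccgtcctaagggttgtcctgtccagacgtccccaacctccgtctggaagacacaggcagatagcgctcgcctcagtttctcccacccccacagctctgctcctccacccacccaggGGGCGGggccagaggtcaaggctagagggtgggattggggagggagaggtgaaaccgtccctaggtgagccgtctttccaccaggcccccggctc
Utf1: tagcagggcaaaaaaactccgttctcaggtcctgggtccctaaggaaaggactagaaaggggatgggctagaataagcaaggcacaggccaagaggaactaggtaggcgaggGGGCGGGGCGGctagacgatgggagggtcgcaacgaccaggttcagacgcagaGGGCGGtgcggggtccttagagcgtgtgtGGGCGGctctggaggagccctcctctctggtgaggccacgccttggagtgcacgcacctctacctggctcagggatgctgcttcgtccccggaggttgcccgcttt
Lin28a: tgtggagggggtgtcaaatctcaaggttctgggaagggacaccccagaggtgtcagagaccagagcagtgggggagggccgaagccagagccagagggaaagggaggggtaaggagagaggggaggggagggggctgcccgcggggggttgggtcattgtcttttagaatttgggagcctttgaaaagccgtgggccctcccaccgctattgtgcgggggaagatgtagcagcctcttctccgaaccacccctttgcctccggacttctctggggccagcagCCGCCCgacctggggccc
Fgf5: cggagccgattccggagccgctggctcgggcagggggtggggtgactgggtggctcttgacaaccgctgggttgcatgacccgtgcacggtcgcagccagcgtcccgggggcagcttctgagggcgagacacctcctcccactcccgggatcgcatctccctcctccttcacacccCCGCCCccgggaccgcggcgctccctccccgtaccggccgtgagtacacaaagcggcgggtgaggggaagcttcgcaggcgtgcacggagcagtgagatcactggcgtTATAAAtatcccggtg
Otx2: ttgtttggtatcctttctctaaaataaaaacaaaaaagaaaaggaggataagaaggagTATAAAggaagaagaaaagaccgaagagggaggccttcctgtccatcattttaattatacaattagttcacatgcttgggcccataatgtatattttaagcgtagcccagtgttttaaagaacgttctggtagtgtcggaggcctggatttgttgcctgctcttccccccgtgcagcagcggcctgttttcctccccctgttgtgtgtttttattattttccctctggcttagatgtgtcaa

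The 7 members had 11 windows, 4 of Otx2, 2 of Pou5f1 and 1 of each other. GGGCGG or its reverse complement occurred in 6 of the 11, in none of Otx2 and not in the second of Pou5f1, and in 35.7% of 32851 mouse promoters of the same length. TATAAA was found in Fgf5 and in the first Otx2 window, and in 13.6% of all promoters. The octamer ATGCAAAT, the sequence bound by POU factors such as the product of Pou5f1, was in no member window and in 1.74% of all promoters. The Fgf5 window held 29 CG dinucleotides, that of Fgf4 28 and that of Sox2 27, and the 4 Otx2 windows held 6, 8, 16 and 11, against a median of 7 over all promoters. These letters describe the windows only, and windows rich in CG belonged both to Fgf5, the lowest member, and to Fgf4 and Sox2.

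Pou5f1 encodes OCT4, the POU factor without which pluripotent cells are not maintained. In 2i-14, Pou5f1 was 140, 99.2 and 60.4 FPKM at p18, p39 and p50. Among TSa2i/L libraries, the values were 163 (p22), 134 (p47) and 143 FPKM (p54) for TSa2i-14 and 77.1 (p9) and 147 FPKM (p58) for TSa2i-C57. 4 of the 5 TSa2i/L libraries lay near or above the highest 2i-14 library, but TSa2i-C57 p9 lay between p39 and p50, so the groups overlapped. The difference of log2(FPKM + 1) was 0.45 (SE 0.29, 95% interval -0.18 to 1.08, limma adjusted p = 0.396 over all tested genes). Pou5f1 has annotated pseudogene copies, and the treatment of reads that map to several places is not given in the sources used here, so its level is uncertain to that extent.

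Sox2 (chr3:34548927-34551383, plus strand), the partner of OCT4 on many enhancers, was 17.6 (p18), 24.0 (p39) and 19.6 FPKM (p50) in 2i-14. The TSa2i-14 line had 14.1 FPKM (p22), 24.4 (p47) and 23.8 (p54), and the TSa2i-C57 line 15.9 (p9) and 19.0 (p58). Both groups covered much the same range, with a log2 difference of -0.09 (95% interval -0.55 to 0.38, limma adjusted p = 0.858).

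**Figure D1:**
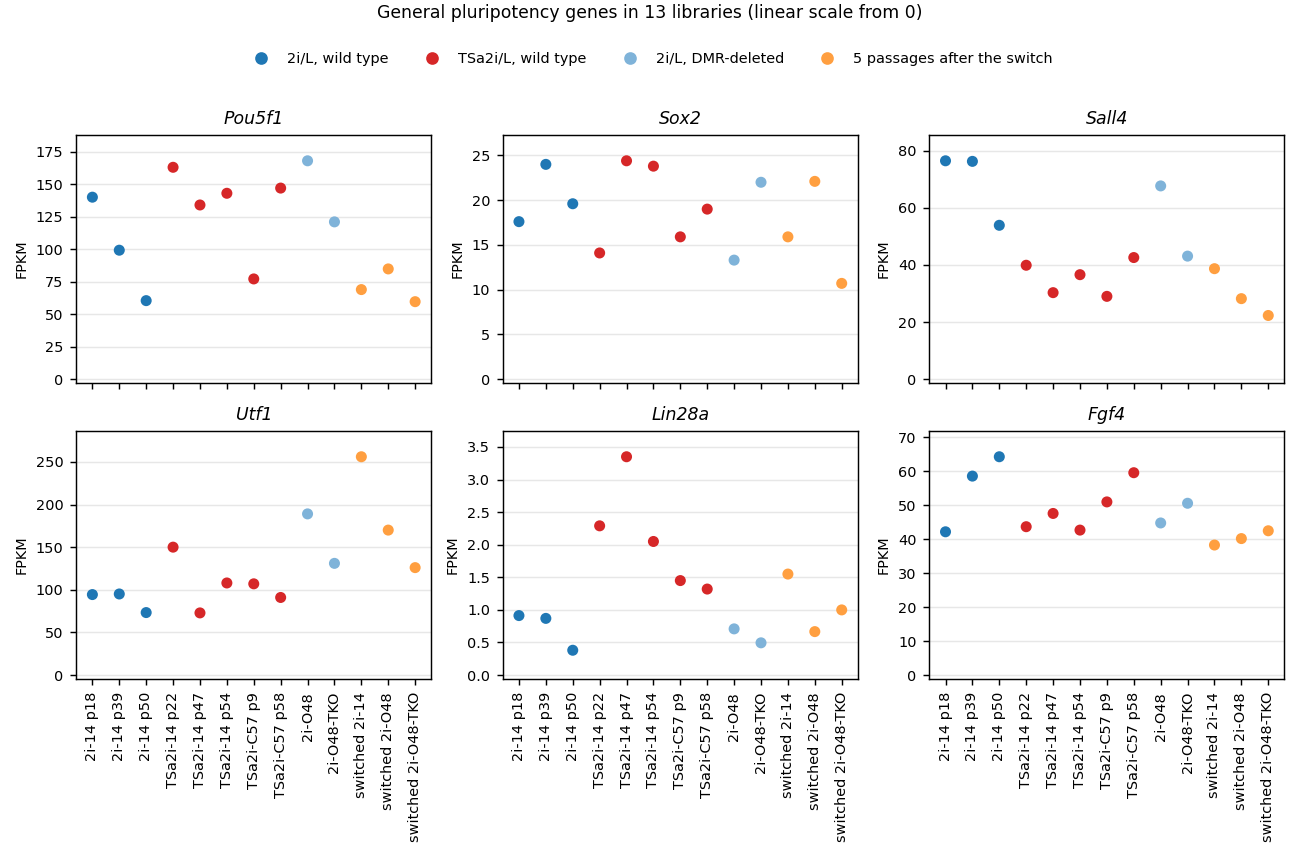
FPKM of the 6 general pluripotency genes in each of the 13 libraries, 1 panel a gene, on linear axes from 0; each point is 1 library, coloured by medium and genotype. The 5 TSa2i/L points lie below the 3 wild-type 2i/L points for Sall4, at 29.0 to 42.6 against 53.9 to 76.5 FPKM, and above them for Lin28a, at 1.32 to 3.35 against 0.381 to 0.913 FPKM.

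Sall4 (chr2:168573832-168593443, minus strand), a zinc finger factor that works with OCT4 and Nanog, was the only member called between the media. It was 76.5 FPKM at p18, 76.3 at p39 and 53.9 at p50 in 2i-14. TSa2i-14 had 39.9 FPKM at p22, 30.3 at p47 and 36.6 at p54, and TSa2i-C57 had 29.0 at p9 and 42.6 at p58. Every TSa2i/L library was below every 2i-14 library. Sall4 fell by 0.93 on the log2 scale (SE 0.19, 95% interval -1.34 to -0.51, limma adjusted p = 0.0148). Of the 10 members, 7 passed the filter of at least 1 FPKM in at least 3 of the 8 libraries, and 1 of these 7 was called lower and 0 higher. Over all 10387 tested genes, 1.85% were called lower and 5.72% higher, while 4.72% were lower and 11.8% higher with groups that did not overlap. The Sall4 call was lost without 2i-14 p18 (-0.84, adjusted p = 0.0532), without 2i-14 p39 (-0.85, adjusted p = 0.0725) and with TSa2i-C57 as the only TSa2i/L line (-0.93, adjusted p = 0.149), all with limma. In bulk samples such as these, fewer cells with a transcript and less of it in each cell cannot be told apart.

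Lin28a encodes an RNA-binding protein that blocks the maturation of let-7 microRNAs. It was 0.913 (p18), 0.870 (p39) and 0.381 FPKM (p50) in 2i-14. Among TSa2i/L libraries, the values were 2.29 (p22), 3.35 (p47) and 2.05 FPKM (p54) for TSa2i-14 and 1.45 (p9) and 1.32 FPKM (p58) for TSa2i-C57. All 5 TSa2i/L libraries were above all 3 of 2i-14, by a log2 difference of 0.82 (SE 0.23, 95% interval 0.32 to 1.32) that narrowly missed the threshold (limma adjusted p = 0.0514). Lin28a passed the filter only through TSa2i/L, as none of the 2i-14 libraries reached 1 FPKM, so the test and the settings in which it was called depend on the group where it is high and are no support for a difference. Without the filter the limma adjusted p was 0.129. With a pseudocount of 0.1 in place of 1, the difference was 1.42 and passed the threshold (limma adjusted p = 0.0465). It passed in 5 of the 18 alternative settings in all, the others being those without TSa2i-C57 p9 (0.90, adjusted p = 0.0482), without TSa2i-C57 p58 (0.92, adjusted p = 0.0420), with TSa2i-14 alone (1.05, adjusted p = 0.0316) and when the 2i/L group took in both deleted lines (0.86, adjusted p = 0.0112). It missed the threshold in the other 13, with an adjusted p of up to 0.177 in limma, without 2i-14 p50 (0.67).

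Utf1, a chromatin factor of undifferentiated cells, was 94.4 FPKM at p18, 95.1 at p39 and 73.3 at p50 in 2i-14. The TSa2i-14 line had 150 FPKM (p22), 72.9 (p47) and 108 (p54), and the TSa2i-C57 line 107 (p9) and 91.0 (p58). The TSa2i/L libraries enclosed the range of 2i-14, and the log2 difference of 0.24 was not called (95% interval -0.23 to 0.71, limma adjusted p = 0.564). Fgf4 (chr7:152047291-152051148, plus strand), the ligand that the cells secrete, was 42.2 (p18), 58.6 (p39) and 64.3 FPKM (p50) in 2i-14. Its TSa2i-14 values were 43.7 FPKM (p22), 47.6 (p47) and 42.7 (p54), and those of TSa2i-C57 were 51.0 (p9) and 59.6 (p58). All TSa2i/L values of Fgf4 lay within the range of 2i-14, with a log2 difference of -0.16 (95% interval -0.55 to 0.24, limma adjusted p = 0.669).

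Otx2, the homeobox factor that moves OCT4 to new enhancers on exit from the naive state, was the only formative gene that reached 1 FPKM. It was 0.214 FPKM at p18, 1.55 at p39 and 1.72 at p50 in 2i-14. TSa2i-14 had 4.57 FPKM at p22, 7.38 at p47 and 5.64 at p54, and TSa2i-C57 had 1.25 at p9 and 13.8 at p58. 4 TSa2i/L libraries were above all 2i-14 libraries and TSa2i-C57 p9 was within their range. The log2 difference was 1.64 (SE 0.50, 95% interval 0.55 to 2.73), the largest among the tested members, and was not called (limma adjusted p = 0.0706). It was called without TSa2i-C57 p9 (2.01, limma adjusted p = 0.0126) and with TSa2i-14 as the only TSa2i/L line (1.73, limma adjusted p = 0.0194), and in none of the other alternative settings. It was 1.27 without 2i-14 p18 (limma adjusted p = 0.209) and had a limma adjusted p = 0.173 when both deleted lines joined 2i/L, where 2i-O48-TKO had 7.04 FPKM. The 2 passages of TSa2i-C57 held both the lowest and the highest TSa2i/L value of Otx2.

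The other formative genes stayed under 1 FPKM in all 13 libraries and were not tested. Fgf5, a ligand that marks the epiblast after implantation, was listed at 0 in 9 libraries, at 0.0993 FPKM in TSa2i-C57 p9, 0.0268 in p58 of the same line, 0.0529 in TSa2i-14 p54 and 0.0825 in the switched culture of 2i-14. Values above the 3-fragment floor were found in TSa2i-C57 p9 and switched 2i-14 alone, and the highest was about 4.03 fragments. Zic2 (chr14:122874604-122879074, plus strand), a zinc finger factor, ranged from 0 to 0.173 FPKM with a median of 0.0524 FPKM, and was under 3 fragments in 7 of the 13 libraries. Its highest value was in 2i-14 p39. Fgf5 and Zic2 therefore gave no difference that could be detected at this depth.

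Pou3f1 (chr4:124334896-124337899, plus strand), which encodes the POU factor OCT6, was 0.170 (p18), 0.0849 (p39) and 0.120 FPKM (p50) in 2i-14. Among TSa2i/L libraries, the values were 0.135 (p22), 0.286 (p47) and 0.370 FPKM (p54) for TSa2i-14 and 0.0770 (p9) and 0.197 FPKM (p58) for TSa2i-C57. The groups overlapped, and with all detected genes fitted the log2 difference was 0.10 (limma adjusted p = 0.561). A pseudogene annotated at the same place overlaps Pou3f1, so its low values are uncertain to that extent.

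**Figure D2:**
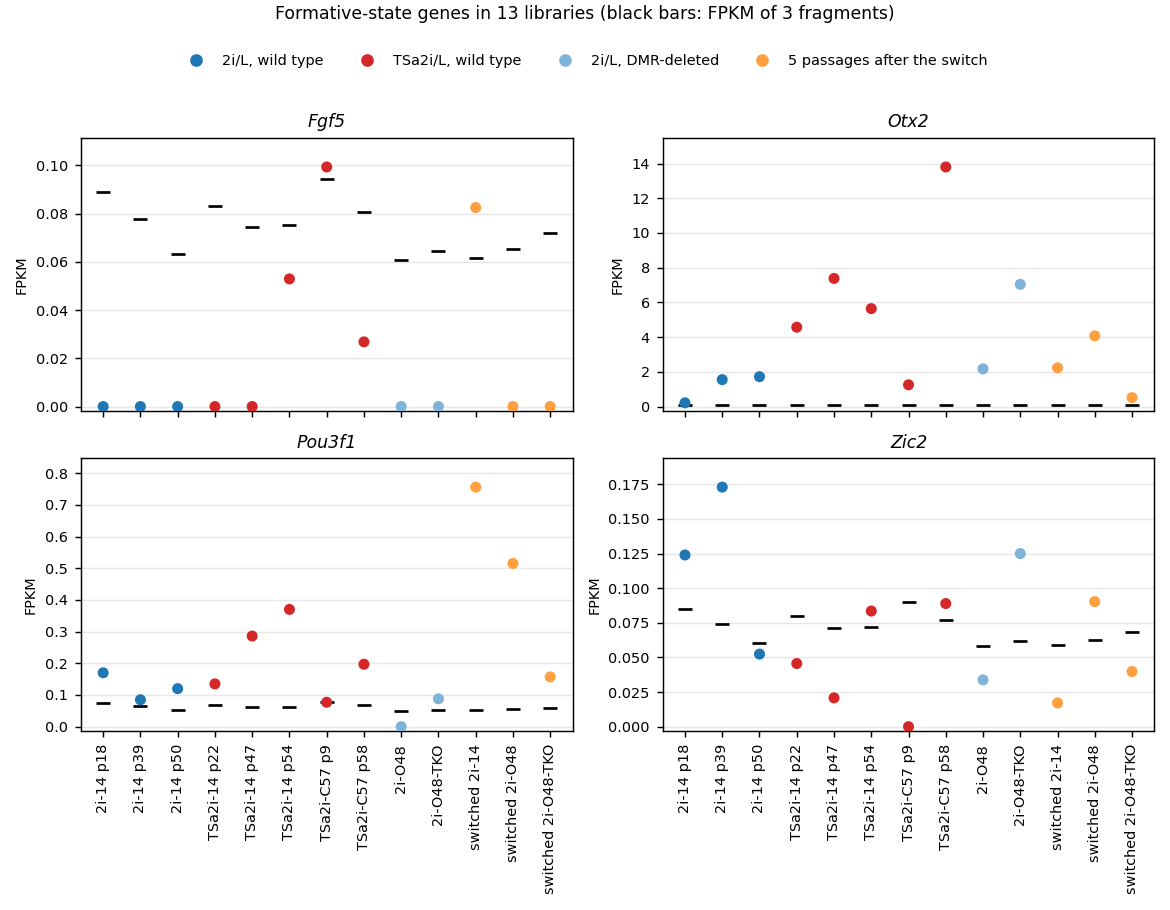
FPKM of the 4 formative genes in each of the 13 libraries, 1 panel a gene with its own linear axis; black bars give the FPKM of 3 fragments in that library. Otx2 lies above the bars everywhere and reaches 13.8 FPKM in TSa2i-C57 p58, Pou3f1 reaches 0.756 FPKM in switched 2i-14, and most Fgf5 and Zic2 points lie under the bars.

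As classes, the summed FPKM of the 6 general genes in 2i-14 was 372 at p18, 354 at p39 and 272 at p50. The sums were 414 (p22), 313 (p47) and 356 (p54) for TSa2i-14 and 281 (p9) and 361 (p58) for TSa2i-C57, so the media overlapped. The 4 formative genes summed to 0.509 (p18), 1.81 (p39) and 1.90 FPKM (p50) in 2i-14, to 4.75 (p22), 7.69 (p47) and 6.15 FPKM (p54) in TSa2i-14 and to 1.42 (p9) and 14.1 FPKM (p58) in TSa2i-C57. Otx2 made up 42.2% of the formative sum in 2i-14 p18, 72.3% in switched 2i-14 and switched 2i-O48-TKO, and 85.8% to 98.5% in the other 10 libraries of both media. The median log2 difference of the 6 general genes by medium was 0.08, beside 0.07 over all 10387 tested genes. It includes Lin28a, which passed the filter only through TSa2i/L, and with Lin28a left out the middle value was that of Sox2, -0.09. The sign of this median thus rests on Lin28a and gives no direction for the class. By switch the median of the 5 tested general genes, without Lin28a, was -0.38, beside -0.09 over all tested genes.

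Cultures 5 passages after the switch were then set against 2i/L cultures of the same line. For 2i-14 this was p50, a library that also served in the comparison of media, so the comparisons share it. Of the members, 6 were tested, none was called, and limma called 672 of 9759 genes. Of the tested genes 2.22% were called higher and 4.66% lower, and 2550 genes had an unadjusted p under 0.05. Sall4 was the tested member with the lowest p. It went from 53.9 to 38.7 FPKM in 2i-14, from 67.7 to 28.2 in 2i-O48 and from 43.1 to 22.3 in 2i-O48-TKO. It was lower in 3 of 3 pairs and every switched culture was below every 2i/L culture, with a log2 difference of -0.87 (SE 0.22, 95% interval -1.39 to -0.35, limma adjusted p = 0.0655). Among all tested genes 29.4% were lower in all 3 pairs and 19.4% were higher in all 3. The share of all tested genes without overlap between the 3 switched and the 3 paired 2i/L cultures was not computed. Lack of overlap by switch, here and below, therefore only describes the named genes.

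Fgf4 was lower in all 3 pairs as well. It went from 64.3 to 38.3 FPKM in 2i-14, from 44.8 to 40.2 in 2i-O48 and from 50.6 to 42.5 in 2i-O48-TKO, a log2 difference of -0.38 (95% interval -0.86 to 0.11, limma adjusted p = 0.293). The switched values lay close together below the 3 paired controls, while 2i-14 p18 in 2i/L, at 42.2 FPKM, was within their range. Sox2 differed in direction between pairs, going from 19.6 to 15.9 FPKM in 2i-14, from 13.3 to 22.1 in 2i-O48 and from 22.03 to 10.7 in 2i-O48-TKO (log2 difference -0.19, limma adjusted p = 0.759).

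Pou5f1 and Utf1 were the members whose wild-type pair, with p50 as control, differed in direction from both deleted pairs. Pou5f1 went from 60.4 to 68.9 FPKM in 2i-14, but from 168 to 84.8 in 2i-O48 and from 121 to 59.6 in 2i-O48-TKO. The levels after the switch lay closer together, at 59.6 to 84.8 FPKM, while those in 2i/L ranged from 60.4 to 168 FPKM. The log2 difference over the pairs was -0.60 (SE 0.27, 95% interval -1.26 to 0.06, limma adjusted p = 0.228). The direction in 2i-14 and the call depended on its control passage, since the 68.9 FPKM after the switch was below the 140 FPKM of p18 and the 99.2 FPKM of p39, the direction of the deleted pairs. Pou5f1 was called lower with p39 as control (-0.84, limma adjusted p = 0.0200), with p18 (limma adjusted p = 0.0126) and without the 2i-14 pair (-0.99, limma adjusted p = 0.00565). Sall4 was also called in these settings, at -1.04 (limma adjusted p = 0.0104), -1.04 (limma adjusted p = 0.0158) and -1.08 (limma adjusted p = 0.00685), and when p18, p39 and p50 together were the 2i-14 control (-0.96, limma adjusted p = 0.0138).

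Utf1 went from 73.3 to 256 FPKM in 2i-14, the highest Utf1 value of all libraries. In 2i-O48 it went from 189 to 170 FPKM and in 2i-O48-TKO from 131 to 126 FPKM. The log2 change was 1.79 in the wild-type pair and -0.16 and -0.06 in the deleted pairs, and 0.52 over the 3 pairs (95% interval -0.41 to 1.45, limma adjusted p = 0.435). Switched 2i-14 is the library in which microRNA loci held 67.2% of the summed FPKM, and their part in the Utf1 value was not tested.

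**Figure D3:**
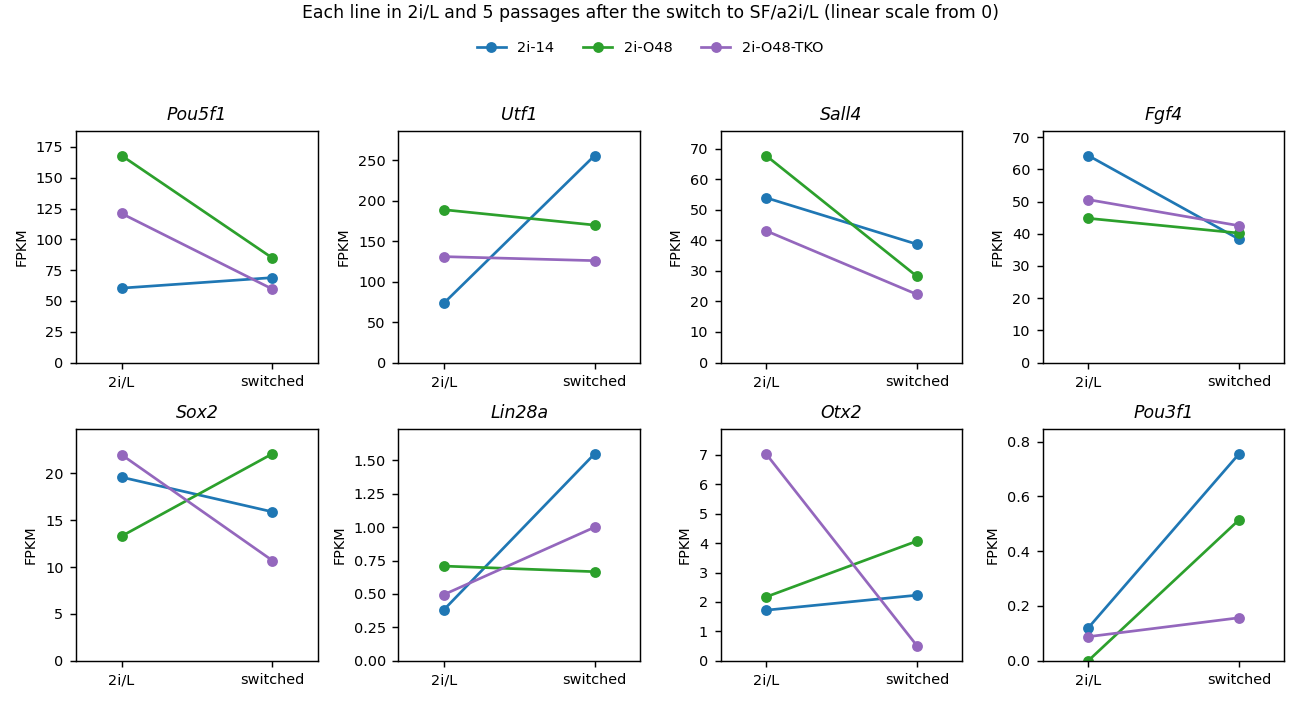
FPKM of 8 members in each line in 2i/L and after 5 passages in SF/a2i/L, on linear axes from 0; each line joins the 2 libraries of a cell line. The lines slope down in all 3 pairs for Sall4 and Fgf4 and up in all 3 for Pou3f1, while Pou5f1, Utf1, Sox2, Lin28a and Otx2 differ in direction between pairs.

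Lin28a reached 1 FPKM in 2 of the 6 libraries and was not tested here. It went from 0.381 to 1.55 FPKM in 2i-14, from 0.709 to 0.667 in 2i-O48 and from 0.495 to 1.00 in 2i-O48-TKO, higher in 2 of 3 pairs. Otx2 went from 1.72 to 2.23 FPKM in 2i-14, from 2.17 to 4.07 in 2i-O48 and from 7.04 to 0.513 in 2i-O48-TKO. The last pair set the sign of its log2 difference, -0.50 over the 3 pairs (95% interval -1.86 to 0.87, limma adjusted p = 0.625) and 0.46 without that pair (limma adjusted p = 0.664).

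Pou3f1 was the formative gene that was higher after the switch in 3 of 3 pairs. It went from 0.120 to 0.756 FPKM in 2i-14, from 0 to 0.515 in 2i-O48 and from 0.0879 to 0.157 in 2i-O48-TKO. The highest value, in switched 2i-14, was about 44.3 fragments, so it was well above the floor. The 2i-O48-TKO pair rested on only about 4.91 fragments in 2i/L and 7.86 after the switch, near the floor of 3. The 3 switched cultures were above the 3 paired controls, but 2i-14 p18 in 2i/L, at 0.170 FPKM, was above switched 2i-O48-TKO. Fitted with all detected genes, the log2 difference was 0.45 and was not called (limma adjusted p = 0.243).

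**Figure D4:**
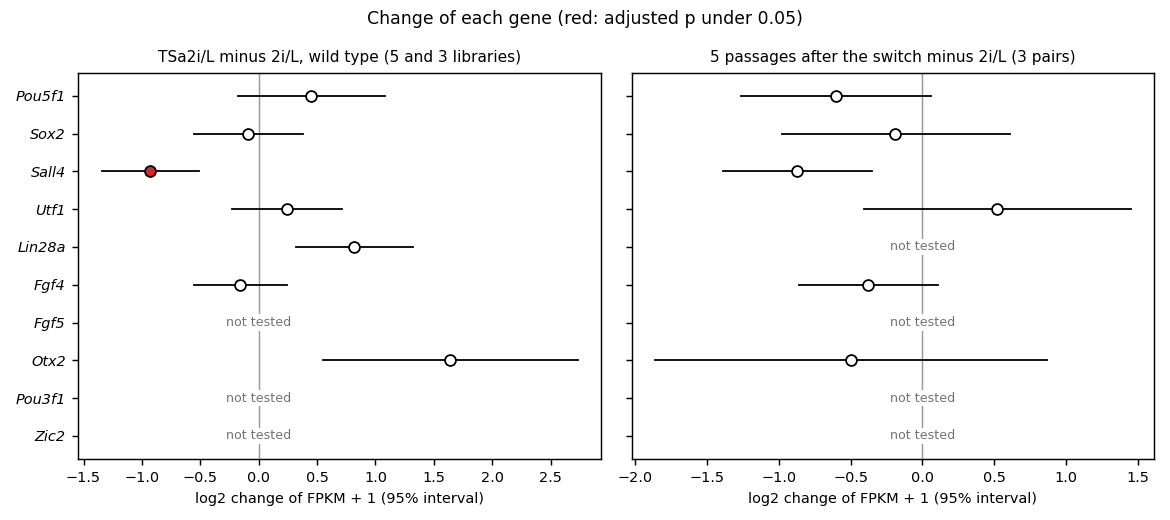
Log2 difference of FPKM + 1 for each member, with its 95% interval, for wild-type TSa2i/L minus 2i/L libraries (left) and for switched against 2i/L cultures (right). Red marks an adjusted p under 0.05, which Sall4 alone reached, at -0.93 on the left; its value on the right was -0.87.

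Side by side, Sall4 had log2 differences of -0.93 by medium and -0.87 by switch, Pou5f1 of 0.45 and -0.60, Utf1 of 0.24 and 0.52, Fgf4 of -0.16 and -0.38, Sox2 of -0.09 and -0.19, and Otx2 of 1.64 and -0.50. Median centring shifted the log2 differences by a median over genes of -0.12 (medium) and 0.17 (switch), and quantile normalization by -0.13 and 0.13. Genes called higher made up 75.6% of the calls by medium and 32.3% by switch, 56.2% and 55.1% under median centring, and 55.7% and 45.3% under quantile normalization. Under both, Sall4 kept its direction in both comparisons and its call by medium.

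Genes related to the members by role or family were read from lists chosen like the members. Of 14 other general pluripotency genes, 14 were tested by medium and 13 by switch, and none was called, with median log2 differences of -0.10 and -0.15. The medians over all tested genes were 0.07 and -0.09. The largest differences by medium were -0.45 for L1td1 (adjusted p = 0.428) and 0.42 for Mybl2 (adjusted p = 0.327), both from limma. By switch the largest negative difference was -0.76, for Zscan10 (limma adjusted p = 0.153). Dppa4 lay between 81.6 and 83.8 FPKM in 2i-14 and between 44.5 and 78.9 FPKM in TSa2i/L, and in the switch pairs between 69.9 and 83.3 FPKM in 2i/L and 94.8 and 120 FPKM in switched cultures, in neither case with overlap or a call.

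Of 12 other formative and primed genes, 6 were tested by medium and 4 by switch and none was called, with medians of -0.22 and -0.09. Dnmt3a, a DNA methyltransferase, ranged from 1.05 to 2.61 FPKM in 2i-14 and from 0.511 to 1.20 FPKM in TSa2i/L (log2 difference -0.53, limma adjusted p = 0.160). Lin28b, the paralog of Lin28a, ranged from 0.403 to 0.916 FPKM in 2i-14 and from 0.986 to 1.98 FPKM in TSa2i/L, without overlap (log2 difference 0.41, limma adjusted p = 0.223), and it too passed the filter only through TSa2i/L. By switch, Pim2 was 15.7 to 21.8 FPKM in 2i/L and 5.74 to 11.3 FPKM in switched cultures (log2 difference -1.13, limma adjusted p = 0.0619). Tcf15, a helix-loop-helix factor of cells primed to leave the naive state, was 19.1 to 29.0 FPKM in 2i/L and 33.9 to 73.0 FPKM in switched cultures (log2 difference 0.95, limma adjusted p = 0.133). The 15 genes of the same families as members had 6 and 4 tested and none called, with medians of 0.26 and 0.37. Lin28b is part of the medians by medium of both lists. Sall1, a relative of Sall4, had log2 differences of 0.55 by medium (limma adjusted p = 0.135) and 0.36 by switch (limma adjusted p = 0.395), opposite in sign to those of Sall4.

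The receptors and adaptors for FGF4 and FGF5 were mostly low. 3 of 6, Fgfr1, Frs2 and Frs3, were tested in each comparison and none was called, with medians of 0.20 by medium and -0.32 by switch. Fgfr1, an FGF receptor of pluripotent cells, was 2.46 to 3.82 FPKM in 2i-14 and 2.05 to 4.62 FPKM in TSa2i/L. In the switch pairs it was 2.46 to 3.55 FPKM in 2i/L and 0.951 to 1.74 FPKM in switched cultures, with no overlap (log2 difference -0.72, limma adjusted p = 0.0671).

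Naive genes were set beside the members. 12 of 12 were tested in both comparisons, and 1 was called lower by medium and 2 by switch, with 0 higher in each and medians of 0.22 and -0.05. Prdm14, a repressor of FGF signalling in naive cells, was 20.6 to 24.5 FPKM in 2i-14 and 7.74 to 16.1 FPKM in TSa2i/L, a log2 difference of -0.97 (SE 0.22, limma adjusted p = 0.0238). In the switch pairs it was 23.4 to 39.5 FPKM in 2i/L and 9.43 to 11.3 FPKM in switched cultures, a log2 difference of -1.39 (SE 0.21, limma adjusted p = 0.0203). Nanog was 232 to 467 FPKM in 2i/L and 110 to 195 FPKM in switched cultures (log2 difference -0.93, SE 0.20, limma adjusted p = 0.0483). By medium the largest positive differences were 0.68 for Tfcp2l1 (limma adjusted p = 0.312) and 0.66 for Klf4 (limma adjusted p = 0.110). The switch calls of Prdm14 and Nanog were lost without the filter on low values, where 0 genes were called.

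Markers of other cell types were read in every library. The 12 fibroblast markers, for the feeder cells, stood apart in 3 libraries, with a mean log2(FPKM + 1) of 3.14 (TSa2i-14 p54), 3.12 (2i-14 p39) and 2.32 (TSa2i-C57 p58). TSa2i-14 p22 followed at 1.28, and the remaining 9 libraries had means of 0.82 to 1.05. In 2i-14 they summed to 225 FPKM at p18, 393 at p39 and 151 at p50. The sums were 182 (p22), 259 (p47) and 384 FPKM (p54) for TSa2i-14 and 185 (p9) and 294 FPKM (p58) for TSa2i-C57. Sparc was the most abundant marker in every library, at 219 of the 393 FPKM in 2i-14 p39, and is high in libraries where the matrix genes are near 0. Dcn reached 58.2 FPKM in TSa2i-14 p54, with 19.6 for TSa2i-C57 p58 next, was 3.76 at 2i-14 p39 and was listed at 0 in 2i-14 p18, 2i-14 p50 and 2i-O48-TKO.

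In 2i/L the sum was 106 FPKM for 2i-O48 and 101 for 2i-O48-TKO, and in switched cultures it was 57.6 for 2i-14, 55.8 for 2i-O48 and 53.6 for 2i-O48-TKO, lower in each pair. Sparc made up most of each sum. The sum of the other 11 markers was higher after the switch in 3 of 3 pairs, going from 2.84 to 3.59 FPKM in 2i-14, from 3.27 to 8.93 in 2i-O48 and from 3.53 to 5.44 in 2i-O48-TKO. Col1a2, Postn and Twist1 were higher in all switched cultures than in the paired controls, each below 1 FPKM. Acta2, Thy1 and Lum were also higher in 3 of 3 pairs, with up to 2.57, 1.50 and 0.717 FPKM in switched cultures. Col1a1 was lower in 3 of 3 pairs, at 0.380 to 1.17 FPKM in 2i/L and 0.351 to 0.582 FPKM in switched cultures, and Dcn, Tagln and Pdgfrb differed in direction between pairs. The part of these markers in the member values of the switch pairs was not tested. Of the fibroblast markers 9 were tested by medium (median 0.08) with none called. This median includes Lum (1.76), which passed the filter only through TSa2i/L, so it gives no direction. By switch 2 were tested (median -0.57), and Sparc was called lower (log2 difference -1.19, limma adjusted p = 0.0204). Sparc went from 102 to 46.9 FPKM in 2i-O48 and from 98.0 to 48.2 FPKM in 2i-O48-TKO. With the fibroblast mean as a covariate, the medium difference was -0.94 for Sall4 (limma adjusted p = 0.0121), 0.82 for Lin28a (limma adjusted p = 0.0571) and 1.61 for Otx2 (limma adjusted p = 0.0570). Without 2i-14 p39, TSa2i-14 p54 and TSa2i-C57 p58 the Sall4 difference was -0.95 and no longer called (limma adjusted p = 0.127), with 2 against 3 libraries.

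Of the other lineages, none of the 6 primitive endoderm markers reached 1 FPKM in any library, and their sum was at most 1.29 FPKM, in TSa2i-C57 p58. Sox7 was the most abundant of them there at 0.480 FPKM. The 6 trophoblast markers summed to 2.03 to 8.66 FPKM, with Ascl2 the most abundant in 11 of the 13 libraries. Cdx2 was listed at 0 in all 5 TSa2i/L libraries, but also in 2i-14 p50, switched 2i-14 and switched 2i-O48-TKO. Its highest value was 0.251 FPKM, in 2i-14 p18. Eomes, which also acts in the early embryo proper, ranged from 0.190 FPKM in switched 2i-O48-TKO to 1.66 FPKM in TSa2i-14 p47. The 6 early germ layer markers summed to 0.344 to 2.76 FPKM. The median log2 difference was 0.48 for 3 tested trophoblast markers by medium, the value of Eomes, and -0.11 for 1 by switch. For Gsc, the 1 tested germ layer marker, the difference was 0.32 by medium and -0.75 by switch. Eomes passed the filter by medium only through TSa2i/L, and Gsc passed it by switch only through 2i/L. The 0.48 and the -0.75 therefore depend on the group where the gene is high and are no support for a difference. None of the markers of these 3 lists was called in either comparison. By switch, Gata3, Mixl1 and Pdgfra were too low to be tested and were lower in switched cultures without overlap. Gata3 was 0.245 to 1.23 FPKM in 2i/L and 0 to 0.0469 FPKM after the switch, and Mixl1 was 0.117 to 0.407 and 0.0266 to 0.0483 FPKM. No marker of these lists was higher without overlap.

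Genes with the pattern most like a member over the 13 libraries were sought, among 10730 genes, for the 4 members with the largest SD of log2(FPKM + 1). On this scale Lin28a, which varied 8.77-fold between its lowest and highest library, was not among them. These correlations are a description over libraries that share lines and media. Otx2 was most like Eomes (Pearson r = 0.921), Pank2 (0.909) and Setd6 (0.885), and Sall4 was most like Dnajb6 (0.979), Larp7 (0.967) and Yrdc (0.936). For Pou5f1 the closest were Apba3 (0.957), Pes1 (0.943) and Klhdc3 (0.940), and for Utf1 they were Gm10451 (0.906), Hmces (0.847) and Tdp2 (0.837). Of these only Eomes stood in a list above. All 3 genes closest to Utf1 had their highest value in switched 2i-14, the library in which Utf1 was highest.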

How the data were processed

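The authors amplified full-length cDNA from small numbers of haploid cells, mapped reads to mm9 and deposited FPKM per gene for each of 13 libraries. The submitters' processing notes name TopHat2 2.0.11, Bowtie2 2.2.2 and Cufflinks 2.2.1. The gene annotation and any scaling between libraries are not given in the sources used here. The 28 methylation and chromatin samples were not analysed here. Rows of a symbol were summed. FPKM are not counts, so limma 3.58.1 (R 4.3.3, trended empirical Bayes) was run on log2(FPKM + 1), a scale that understates changes of low genes, with Benjamini-Hochberg adjustment at 0.05 over all genes with at least 1 FPKM in at least 3 libraries of the comparison.

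Medium was fitted on 5 TSa2i/L and 3 2i-14 libraries. The switch was fitted on 3 pairs with the line as a block, since labels name the same line in both media. Deviations of same-line libraries from their group means had a Pearson r of 0.172 (2i-14), -0.141 (2i-O48) and 0.358 (2i-O48-TKO). Members and lists were chosen with earlier results of these data known. Named genes were all members, called genes of each list with up to 3 rises and 3 falls, and the 3 genes most correlated with each of the 4 members with the largest SD of log2(FPKM + 1); other genes were named after their values were seen. A test of the switch by genotype was added after seeing the data. Depth was estimated on 3737 genes over 1500 bp with 1 GENCODE vM1 transcript, and fragments per member used its longest coding transcript. Both steps were tested on simulated data, in which the switch fit recovered fewer changes than the medium fit. Both fits missed some changes, so a gene not called by medium or by switch may still differ. Python 3.11.15, numpy 2.4.6, pandas 2.3.3 and matplotlib 3.10.9 served for other computations.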

Additional observations from a re-analysis of the deposited data

Results flagged for a closer look

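TSa2i-C57 p9 stood apart from the other TSa2i/L libraries in the mean log2(FPKM + 1) of the general members, at 4.84 against 5.11 to 5.18 in the other 4. The same library was apart in the mean over all 10 members, at 3.04, and in the mean of the 14 other general pluripotency genes, at 4.27. The screen covered 22 items, the 10 members and 12 list means. Chance sets a library apart in about 1 of 20 such groups, so about 1 is expected, and the first and second means share genes. TSa2i-C57 p9 also had the lowest implied depth, 12700000 fragments, and the part of depth in these means was not tested.

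Pou5f1 and Utf1 differed in direction between the wild-type switch pair and both deleted pairs, with log2 changes of 0.19 and 1.79 in 2i-14. For Pou5f1 this held only with p50 as control, since p18 (140 FPKM) and p39 (99.2 FPKM) were above the 68.9 FPKM after the switch. An interaction fitted in limma after seeing the data called neither gene (adjusted p = 0.654 for Pou5f1 and 0.170 for Utf1). It sets 1 wild-type pair against 2 deleted pairs and was chosen for these values, so it settles nothing about genotype, and genotype and line cannot be told apart.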

How the results depend on the processing

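By medium, 786 genes and 1 member, Sall4, were called. Leaving out each library in turn gave 299 to 846 genes and 0 to 3 members. The counts were 374 genes without a filter, 458 when the filter was a mean of at least 5 FPKM, 468 genes and 3 members with TSa2i-14 only, 109 genes and 0 members with TSa2i-C57 only, 1316 genes and 2 members when both deleted lines joined 2i/L, and 137 genes and 0 members without 2i-14 p39, TSa2i-14 p54 and TSa2i-C57 p58. A pseudocount of 0.1 gave 2 members. Every count of 2 or 3 members held Sall4 and Lin28a, and the counts of 3 held Otx2 as well. Lin28a passed the filter only through TSa2i/L, so its calls are no support for a difference. The genes tested numbered 18909 without a filter, 6381 under the filter of mean 5 and 9732 to 10597 with other sets of libraries. Higher genes made up 75.6% of the calls, 56.2% under median centring and 55.7% under quantile normalization.

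By switch, 672 genes and 0 members were called. The counts were 0 genes without a filter (3206 below 0.05 before adjustment), 369 under the filter of mean 5, 1522 genes and 2 members with 2i-14 p39 as control, 1483 and 2 with p18, and 1505 and 1 with all 3 passages. Leaving out a pair gave 94 to 1337 genes and 0 to 2 members: 1308 genes and 2 members without 2i-14, 1337 genes without 2i-O48 and 94 without 2i-O48-TKO. Where 2 members were called they were Pou5f1 and Sall4, and where 1 was called it was Sall4. The genes tested numbered 18837 without a filter, 6107 under the filter of mean 5 and 9120 to 10106 with other sets of libraries. No replicate block gave 778 genes and 0 members and changed no call of a member. Higher genes were 32.3% of the calls, 55.1% under median centring and 45.3% under quantile normalization.

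Directions turned for members that were not called. By medium, leaving out each library put Sox2 between -0.18 and 0.03, with 0.03 without 2i-14 p39, 0.02 without TSa2i-14 p22 and 0.00 when both deleted lines joined 2i/L, where Utf1 was -0.10; Fgf4 was 0.02 with TSa2i-C57 only. By switch, leaving out each pair put Utf1 between -0.11 (without 2i-14) and 0.87, Sox2 between -0.63 and 0.21 (without 2i-O48-TKO) and Otx2 between -1.08 and 0.46 (without 2i-O48-TKO). Among values of single members, 194 kept direction and side of the threshold, 14 gained the call, 4 lost it and 8 turned. Fewer genes were tested under the stricter filter; the cause was not tested for the other differences. Depth limits Fgf5 and Zic2, which lay at or under 3 fragments in most libraries.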
